A study of Mus musculus with 6 samples.

Results

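The genes described here are 37 developmental transcription factor genes of the mouse, most of them in the Hox clusters. They are 10 genes of the HoxB cluster on chromosome 11, 9 of the HoxC cluster on chromosome 15, 9 of the HoxD cluster on chromosome 2 with the neighbouring homeobox gene Evx2, 5 Pax genes, the genes Six2 and Six3, and the Wilms tumour gene Wt1. They were taken by name from the 34614 protein-coding and lncRNA genes of the annotation, and each stood for its mm10 gene span with 1000 bases on either side. Positions with a value in at least 1 library lay in 32 of the 37 genes. Hoxb9, Hoxc5, Hoxc8, Hoxc12 and Six3 had none, and the HoxA cluster was not analysed here.

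Hox genes encode homeodomain proteins that set position along the body axis, and the order of the genes in a cluster follows the order in which they are used from head to tail. Pax proteins, Six2, Six3 and Wt1 direct the formation of organs such as eye, kidney, muscle and gonad, and are silent in most adult epithelia. Genes of this kind carry large CpG islands that are bound by Polycomb complexes where the genes are off, and in tumours and ageing tissue these islands are known to gain DNA methylation.

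Intestinal organoids from mice were profiled by reduced representation bisulfite sequencing (RRBS), a method that reads the CpG-rich restriction fragments of the genome. All 6 libraries came from Apc Min cells, which carry a mutated copy of the Wnt pathway inhibitor Apc, grown in organoid medium low in glutamine. The labels describe 3 of them as control and 3 as treated with DM-aKG, a treatment the study's title connects with α-ketoglutarate, Wnt signalling and differentiation. α-Ketoglutarate is a substrate of the TET enzymes, which oxidise methylated cytosine, and the comparison asks whether methylation differed after the treatment. The labels call the libraries biological replicates and give no age, clone or number of animals.

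The table gave a percent of methylation at each cytosine position in each library. No value above 0 was lower than 40, and a 0 was read as no value, which can mean a level under 40% or a position that was not called. A position with a value in all 6 libraries is called complete here, and the level of a gene is the mean over its complete positions. Read depth was not given, so neither intervals from read counts nor a coverage minimum could be used. A level is an average over all cells of a library, so a lower level in every cell and fewer cells with methylation cannot be told apart.

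RefSeq promoter sequences (GRCm38.p6, from 250 bases before to 50 bases after a start site) were available for 20 of the 37 genes, 24 promoters in all. They were rich in CG dinucleotides: the median was 15 per promoter against 7 over all 18212 promoters, and 19 of the 24 (79.2%) held 10 or more, against 43.9% of all. Positions of the table fell in 2 of the 24, those of Hoxb1 and Hoxd1 (8.33%, against 4.32% of all promoters). Both are printed here with the most CG-rich Hox promoter of the set, that of Hoxd13, in which no position was reported. They lie on the plus strand at chr11:96365508-96365807 (Hoxb1), chr2:74762730-74763029 (Hoxd1) and chr2:74667975-74668274 (Hoxd13), run 5′ to 3′, and have in capitals the CG dinucleotides with a value in at least 1 library.
Hoxb1: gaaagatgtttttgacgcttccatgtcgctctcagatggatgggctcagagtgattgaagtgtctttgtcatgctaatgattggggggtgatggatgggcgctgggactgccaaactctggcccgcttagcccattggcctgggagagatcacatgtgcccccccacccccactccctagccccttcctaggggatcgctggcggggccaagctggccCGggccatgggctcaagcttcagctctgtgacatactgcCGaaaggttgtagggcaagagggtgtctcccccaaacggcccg
Hoxd1: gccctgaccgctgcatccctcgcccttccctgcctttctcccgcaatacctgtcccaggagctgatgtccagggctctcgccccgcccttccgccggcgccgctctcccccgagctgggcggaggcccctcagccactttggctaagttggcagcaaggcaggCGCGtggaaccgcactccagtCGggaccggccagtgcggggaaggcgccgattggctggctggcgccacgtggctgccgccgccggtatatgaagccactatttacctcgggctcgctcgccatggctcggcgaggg
Hoxd13: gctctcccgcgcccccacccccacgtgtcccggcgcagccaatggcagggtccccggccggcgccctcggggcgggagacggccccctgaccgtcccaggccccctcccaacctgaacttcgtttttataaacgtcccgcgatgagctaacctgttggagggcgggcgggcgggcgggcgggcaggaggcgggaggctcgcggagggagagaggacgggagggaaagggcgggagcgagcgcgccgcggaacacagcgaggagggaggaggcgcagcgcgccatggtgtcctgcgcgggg

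The Hoxb1 promoter held 10 CG dinucleotides, of which the 2 in capitals had values. At the cytosine 32 bases before the start site the controls had 48%, 59% and 41%, DM-aKG replicates 1 and 2 had 65% and 47%, and DM-aKG replicate 3 had no value. At the cytosine 7 bases after it the levels were 43%, 82% and 88% in the controls and 86%, 84% and 56% with DM-aKG, so that control replicate 1 was lowest and the groups overlapped. In the Hoxd1 promoter, with 29 CG dinucleotides, DM-aKG replicate 1 had 50% at the cytosines 87 and 85 bases before the start site, control replicate 3 had 40% at the one 66 bases before it, and no other library had a value at these 3 positions. The Hoxd13 promoter has 37 CG dinucleotides. The sequence TGATNNAT, a form of the site bound by Hox proteins with their Pbx partners, was found on 1 or both strands in 4 of the 24 promoters (16.7%, against 8.65% of all promoters). These were the promoters of Hoxb1, Hoxb8, Evx2 and 1 of the 2 of Hoxd11, and a match is a description of the letters only.

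The genes' spans held 604 measured positions, 396 of them in the Hox clusters, and these were unevenly spread along the Hox order. A measured position here is one with a value, thus 40% or more, in at least 1 library. Stretches that were read but under 40% cannot be told from stretches that were not read. In HoxB there were 3.27 positions per kb in the spans of Hoxb1 to Hoxb4 and 0.833 per kb in those of Hoxb5 to Hoxb13. In HoxC there were 2.02 per kb in Hoxc4 and 0.213 in Hoxc5 to Hoxc13, and in HoxD 2.52 per kb in Hoxd1 to Hoxd4 and 0.537 in Hoxd8 to Hoxd13. Summed over the genes, positions with such a value were thus denser in the part of each cluster used first and furthest forward. Whether this reflects levels or the regions read was not tested. Single genes did not follow this order. Hoxd1, at the anterior end, had 0.721 per kb, less than Hoxd11 with 1.06 and Evx2 with 1.14 at the other end, and Hoxb5 had 4.77 per kb against 0.372 in Hoxb4. Hoxb3 had most positions, 133, followed by Hoxd3 with 104. The span of Hoxd3 contains that of Hoxd4 and its 44 positions, and the span of Hoxb3 contains Hoxb4, so these pairs share positions. Of the 29 genes of the Hox clusters, 4 had no position and 13 had 3 or more. The remaining 12 had 1 or 2 positions (17 in all), namely Hoxb4, Hoxb7, Hoxb8, Hoxb13, Hoxc6, Hoxc9, Hoxc10, Hoxc11, Hoxd8, Hoxd9, Hoxd12 and Hoxd13.

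Levels in the Hox clusters were lower than elsewhere. Of the Hox values, 76.1% were under 70%, against 17.3% of all values, and the median Hox value was 56% against 93%. As values under 40% were not given, the Hox positions lay closer to the lower limit of the table than most, and small shifts in level can take a position in or out of it.

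One library stood apart in these genes, and it set how many positions were complete. Control replicate 1 had a value at 21.7% of the 396 Hox positions, while the other 5 libraries had values at 64.6% to 71.2%. Over all positions its share, 83.7%, was also the lowest of the 6, next to 85.2% to 88.6%. At 121 Hox positions all the other 5 libraries had a value, and control replicate 1 had none at 99 of them (81.8%, against 4.11% of such positions in the whole table). With it 5.56% of the Hox positions were complete, and without it 30.6%. In the Pax genes, Six2 and Wt1 the shares were 44.7% and 55.8%, and over all 390208 positions 69.8% and 72.8%. Each other library lacked a value at 5 or fewer of the 22 to 27 Hox positions where its 5 counterparts had one. These counterparts include control replicate 1, so the positions are limited to those it had values at and are not the 121 above. The shares lacking ran from 0% in control replicate 3 to 18.5% in DM-aKG replicate 2. Over the whole table they were 1.24% and 1.31% in these 2 libraries. Cluster, gene, window and position results are therefore given also without this library where it moves them.

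**Figure D1:**
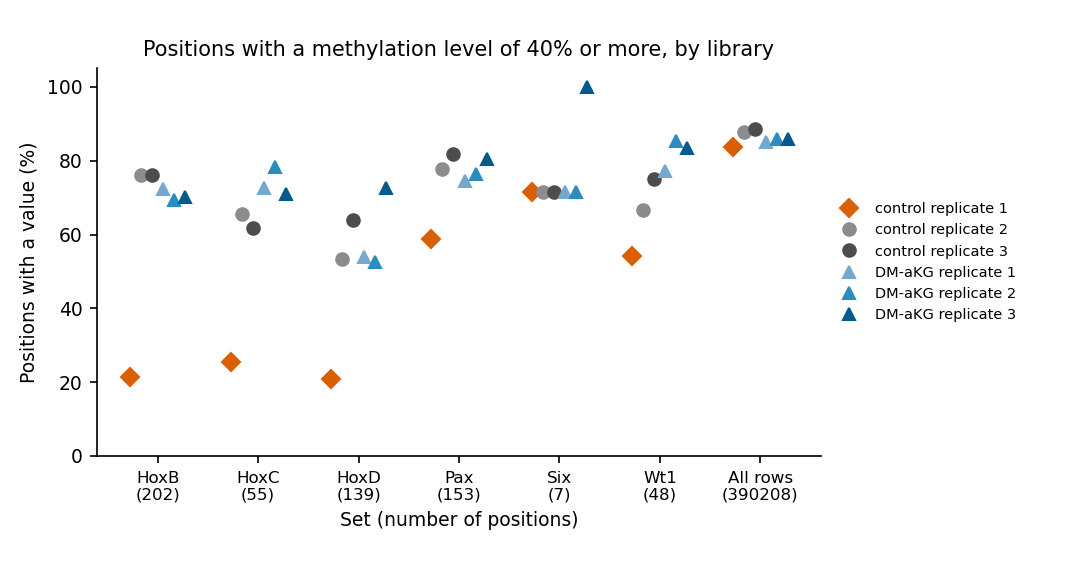
Percent of positions with a value (vertical axis) in each library (points, shaped by group) for the genes of each set and for all rows of the table (horizontal axis, number of positions in brackets). Control replicate 1 lies at 21.3%, 25.5% and 20.9% in HoxB, HoxC and HoxD, below the other 5 libraries, and at 83.7% over all rows.

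At matched levels, control replicate 1 lacked more of the Hox positions than of all positions. Among positions where the other 5 libraries had a mean of 60% to 80%, control replicate 1 lacked a value at 78.2% of the Hox positions and at 9.20% of all positions. Between 40% and 60% the shares were 91.5% and 30%. At the 22 complete Hox positions its mean level was 53.3%, against 68.8% in the other 5 libraries, and it was the single lowest library at 12 of the 22. That rank was not counted over all complete positions, where its mean level was also the lowest, 86.7% against 87.9% to 88.9%. Of the 99 Hox positions it lacked, 29 had a value of that library within 25 bases, and the remaining 70 did not. Whether those 70 were read and under 40% or were not read was not tested, since the table has no coverage.

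In HoxB the gap was seen inside the gene spans and not between them. In that cluster 61 positions lie between the genes' spans, 35 of them in the pseudogene Gm11539 between Hoxb13 and Hoxb9. At these 61 positions control replicate 1 had a value at 90.2%, within the 83.6% to 93.4% of the other libraries. Inside the spans of the HoxB genes it had 21.3%, against 69.3% to 76.2%. The 2 groups of positions also differed in level. At complete positions the other 5 libraries had 82.4% to 86.5% between the spans and 66.1% to 72.4% inside them. Over the whole table control replicate 1 lacked 1.37% of positions where the other 5 had a mean of 80% or more. The part of this level difference in the HoxB gap was not tested. In HoxC and HoxD few positions lie between the spans, 14 and 13, and control replicate 1 had values at 2 and 3 of them, against 7 to 9 and 5 to 12 in the others.

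**Figure D2:**
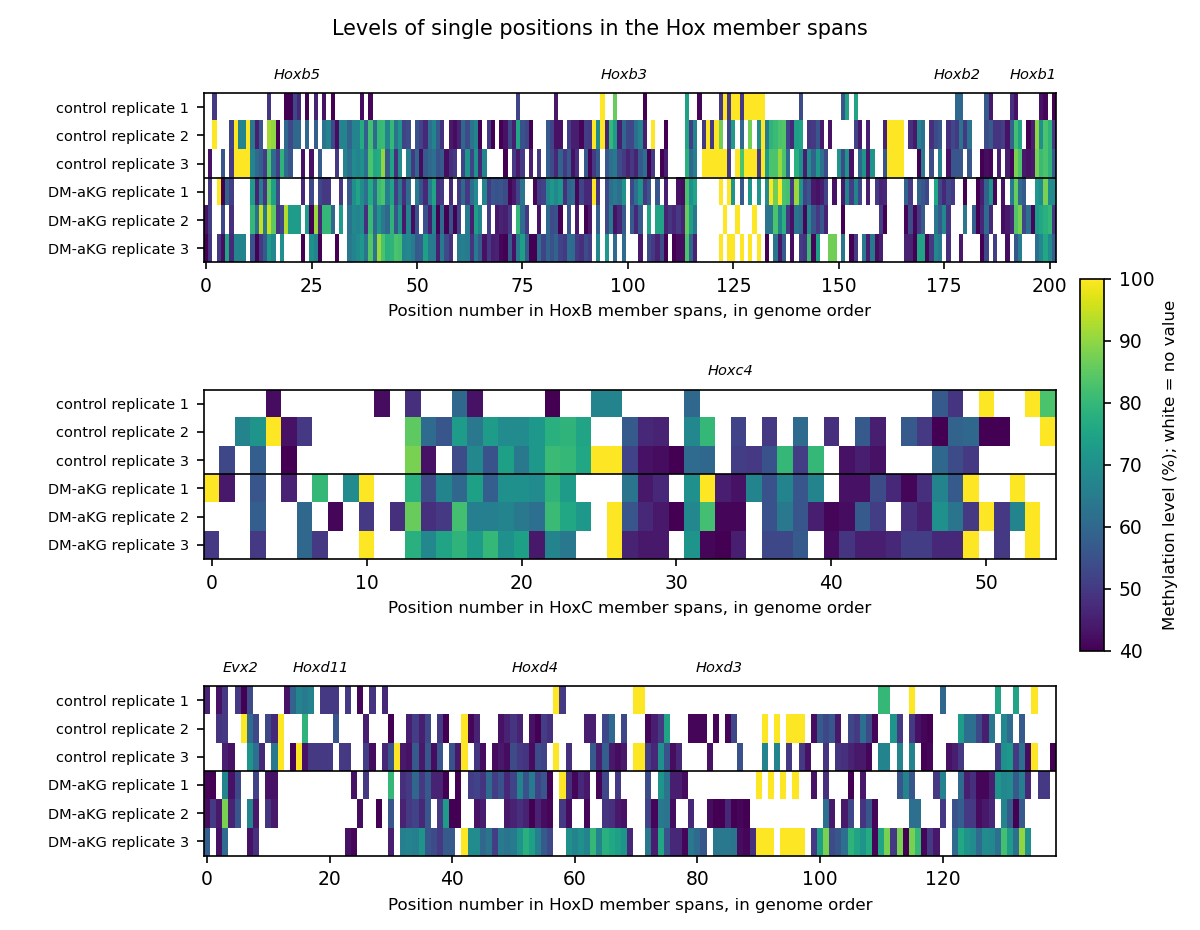
Methylation level (colour, percent, white for no value) at every measured position of the HoxB, HoxC and HoxD genes in genome order (horizontal axis) in the 6 libraries (rows, controls above the line). The row of control replicate 1 is mostly white, except over Hoxd11, where the DM-aKG rows are white, and DM-aKG replicate 3 is the most filled row over Hoxd3 and Hoxd4.

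By cluster, the share of positions with a value was higher with DM-aKG, and in HoxB this turned round without control replicate 1. In HoxB it was 21.3%, 76.2% and 76.2% in the controls and 72.3%, 69.3% and 70.3% with DM-aKG. The difference of the means was 12.7 points with all libraries and -5.61 without control replicate 1. The other 2 controls lay above all DM-aKG libraries.

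In HoxC the shares were 25.5%, 65.5% and 61.8% in the controls and 72.7%, 78.2% and 70.9% with DM-aKG. These groups did not overlap, and the difference was 23 points, or 10.3 without control replicate 1. Among single genes, 2.54% of all had groups apart in that direction. Each of the 55 HoxC positions was listed through a value in at least 1 library. At 2 of them all DM-aKG libraries and no control had a value, and at 0 the reverse was seen. The part of this listing in the HoxC difference was not tested. In HoxD the shares were 20.9%, 53.2% and 64.0% against 54.0%, 52.5% and 72.7%, a difference of 13.7 points that came to 1.08 without control replicate 1. Over all rows the difference was -1.03 points, and -2.52 without that library. No test was made on a cluster as a whole, because its genes were chosen with earlier results known.

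Levels at complete positions showed the same dependence. In the 13 complete HoxB positions the mean was 63.8% ± 11 (SD, n = 3) in controls and 69.7% ± 3.26 (SD, n = 3) with DM-aKG. Without control replicate 1, 70 HoxB positions were complete, and the difference there was -0.138 points. In HoxC the 7 complete positions all belonged to Hoxc4. HoxD had 2 complete positions, too few for a statement about the cluster. Without control replicate 1 it had 27, at which DM-aKG replicate 3 had 68.5% and the other 4 libraries 52.0% to 57.3%. That library was the single highest at 21 of the 27. Its rank was not counted over the whole table, where without control replicate 1 its mean was also the highest, 88.2% against 87.1% to 87.7%.

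**Figure D3:**
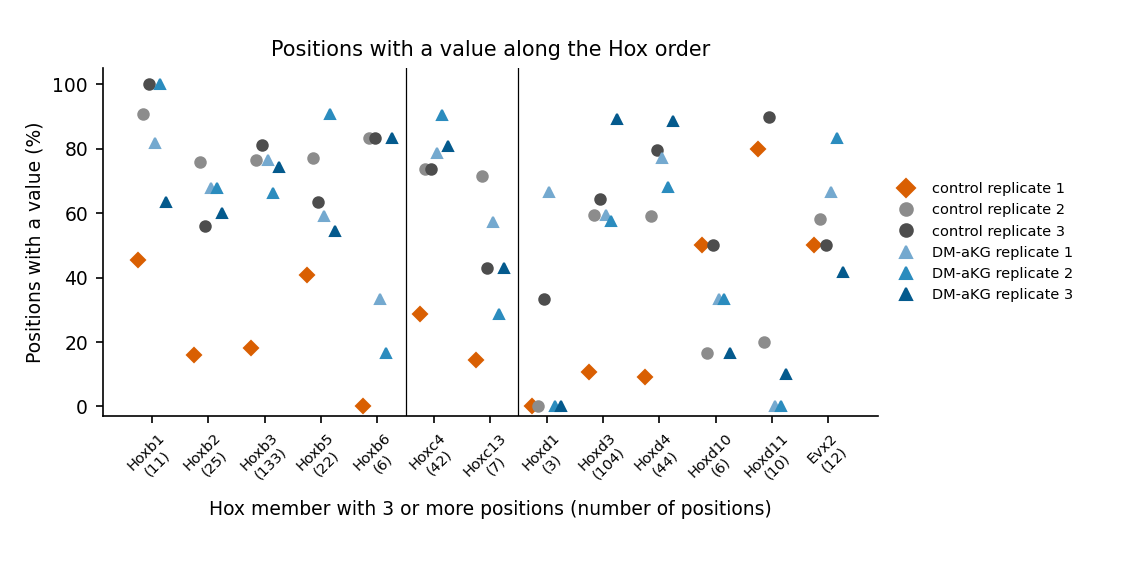
Percent of positions with a value (vertical axis) in each library (points) for the 13 Hox cluster genes with 3 or more positions, in Hox order within each cluster (horizontal axis, number of positions in brackets, vertical lines between clusters). Control replicate 1 is lowest in Hoxb1 to Hoxb6, Hoxc4, Hoxc13, Hoxd3 and Hoxd4, is among the lowest in Hoxd1, and is among the highest in Hoxd10 and Hoxd11.

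Within HoxB the anterior genes carried most of the data. Hoxb1, which specifies part of the hindbrain, had 4 complete positions with levels of 41.8%, 71.3% and 77.3% in the controls and 78.0%, 72.0% and 64.5% with DM-aKG. Control replicate 1 was far below the other 5 libraries, and the groups overlapped. DM-aKG replicate 3 lay below control replicates 2 and 3, and DM-aKG replicate 2 below control replicate 3. Without control replicate 1 the 7 complete positions of Hoxb1 gave a difference of -6.38 points, where the difference had been 8.08 with all libraries.

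Hoxb3, a regulator of hindbrain and pharyngeal development, had 7 complete positions with 56.1%, 71.6% and 65.1% in the controls and 69.3%, 67.9% and 67.9% with DM-aKG. The DM-aKG libraries lay between control replicates 2 and 3. Without control replicate 1, 52 positions of Hoxb3 were complete, and their means ran from 60.2% to 63.6% in the 5 libraries, a difference of 0.167 points.

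The positions of Hoxb3 fell into short blocks. Blocks were defined, after the values were seen, as runs of at least 10 positions with gaps of no more than 500 bases, and the Hox genes held 15 of them, from 91 to 1325 bases long. The block at chr11:96310733-96310862 had 15 positions, of which control replicate 1 had values at 2 and the others at 14 or 15. Its means at the 14 positions shared by the other 5 libraries were 69.1% and 69.4% in controls 2 and 3 and 68.0%, 66.0% and 74.7% with DM-aKG. The largest block, at chr11:96314592-96315370, had 44 positions with values at 2 in control replicate 1 and at 32 to 42 in the others. Control replicate 1 had the fewest values of all libraries in 14 of the 15 Hox blocks, the exception being that of Hoxd11.

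Hoxb2, a direct target of Hoxb1 in the hindbrain, had values at 4 of 25 positions in control replicate 1 and at 14 to 19 in the others. Hoxb5, a gene of the trunk and of the enteric nervous system, had 9 of 22 in control replicate 1 and 12 to 20 in the others. Hoxb6 had 6 positions, at 0, 5 and 5 of which the controls had values, against 2, 1 and 5 with DM-aKG. The groups overlapped in all 3 genes. The single complete position of Hoxb2 had 57%, 54% and 42% in the controls and 59%, 61% and 53% with DM-aKG.

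In HoxC, Hoxc4 held 42 of the 55 positions. Its level at 7 complete positions was 51.0%, 66.7% and 66.6% in the controls and 69.3%, 73.7% and 66.0% with DM-aKG. Control replicate 1 was lowest, and DM-aKG replicate 3 lay just below control replicates 2 and 3. The difference of 8.24 points became 1.70 at the 23 positions complete without control replicate 1. Hoxc4 had values at 12, 31 and 31 positions in the controls and at 33, 38 and 34 with DM-aKG, and these groups did not overlap. In limma, adjusted over all 10361 genes, the share of Hoxc4 had an unadjusted p of 0.122 and an adjusted p of 0.526. Most of its positions lay in the block at chr15:103026723-103028047, where control replicate 1 had 9 of 36 and the others 27 to 33. Hoxc13, a gene of hair and nail formation at the other end of the cluster, had values at 1, 5 and 3 of 7 positions in controls and at 4, 2 and 3 with DM-aKG.

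In HoxD, Hoxd3 and Hoxd4, which pattern the neck vertebrae, had the most values in DM-aKG replicate 3. In Hoxd3 the numbers of 104 positions with a value were 11, 62 and 67 in the controls and 62, 60 and 93 with DM-aKG. In Hoxd4 they were 4, 26 and 35 of 44 against 34, 30 and 39. Without control replicate 1, the 24 complete positions of Hoxd3 had 52.5% and 53.9% in the controls and 56.1%, 52.4% and 70.6% with DM-aKG, so that 1 DM-aKG library was high and the other 2 lay near the controls. DM-aKG replicate 3 had the most values of all libraries in each of the 4 blocks of Hoxd3. In the block shared with Hoxd4, at chr2:74726791-74727561, control replicate 1 had no value at any of 20 positions. There DM-aKG replicate 3 had 64.4% at the 8 positions that all other 5 libraries shared, against 44.9% to 54.6% in the other 4.

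Hoxd11, a gene of forelimb and kidney development, ran the other way. Its 10 positions lay in 1 block at chr2:74682414-74682659. Values were present at 8, 2 and 9 of them in the controls and at 0, 0 and 1 with DM-aKG, so the groups did not overlap, although control replicate 2 lay close to the DM-aKG libraries. In limma the log2 odds of a value fell by 4.70 (SE 1.38), with an unadjusted p of 0.0220 and an adjusted p of 0.496 over all genes. Leaving out 1 library at a time gave adjusted p values from 0.0725, without control replicate 2, to 0.681. The 10 positions are those with a value in at least 1 library, and all but 1 had values in controls only. These tests therefore cannot tell a difference between the groups from the way positions came to be listed. The values that were present ranged from 41% to 100% with a median of 50%. Hoxd10, whose span overlaps that of Hoxd11, had values at 3, 1 and 3 of 6 positions in controls and at 2, 2 and 1 with DM-aKG. Evx2, at the posterior border of the cluster, had 6, 7 and 6 of 12 in controls and 8, 10 and 5 with DM-aKG.

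Set against all 7373 genes with at least 10 positions, control replicate 1 was far below the other libraries in most of the 9 genes of the Hox clusters measured this way. Its share of positions with a value was below the median of the other 5 libraries by 68.2 points in Hoxd4 (a change of -68.2), and 0.0407% of all genes were as low or lower in that library. The same measure was -58.6 points in Hoxb3, with 0.176% of genes as low, and between -52.0 and -45.5 in Hoxb2, Hoxc4, Hoxd3 and Hoxb1. Hoxb5 was less extreme at -22.7 points, with 5.15% of genes as low, and Evx2 was near the middle at -8.33 points, with 23.7% as low. Hoxd11 stood at the opposite end with 70 points in control replicate 1 and 80 in control replicate 3.

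**Figure D4:**
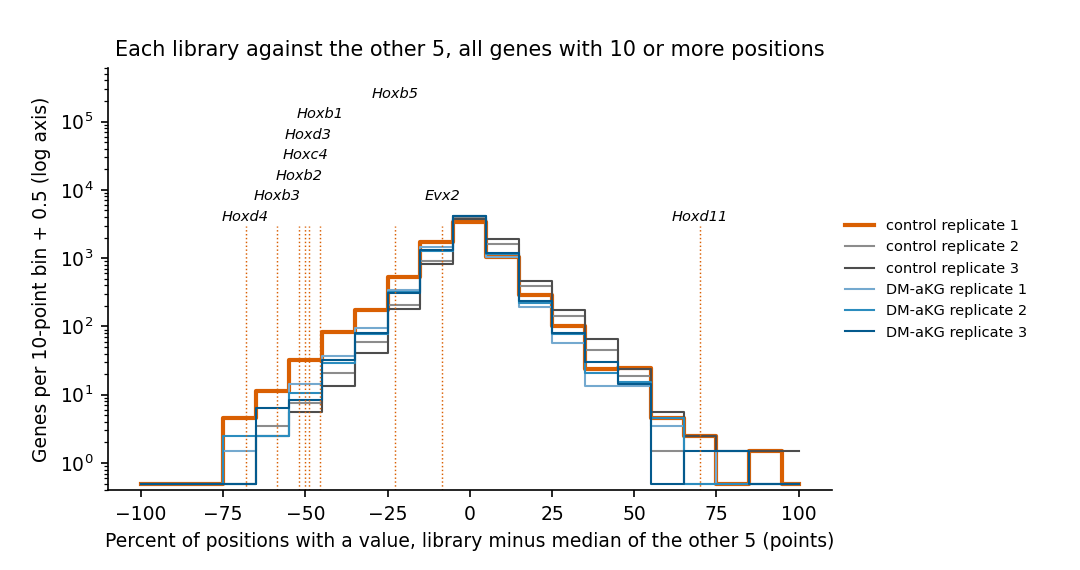
Number of genes (vertical axis, log scale) by the difference between 1 library and the median of the other 5 in the percent of positions with a value (horizontal axis, points), over the 7373 genes with 10 or more positions, 1 line per library. Dotted lines mark the 9 genes of the Hox clusters in control replicate 1, of which 7 lie between -68.2 and -22.7 points, Evx2 at -8.33 and Hoxd11 at 70.

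The Pax genes were more methylated and more completely measured than the Hox genes. Pax2, a regulator of kidney and ear development, had 40 complete positions among 99, with levels of 74.1%, 75.6% and 77.3% in the controls and 80.7%, 76.7% and 78.4% with DM-aKG. The ranges overlapped between control replicate 3 and DM-aKG replicate 2, and the difference was 2.93 points, or 0.478 without control replicate 1. Control replicate 1 also had fewer values in Pax2, at 50 of 99 positions against 73 to 83 in the others.

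Pax3, which acts in the neural crest and in muscle precursors, had 13 complete positions with 76.3%, 85.5% and 81.2% in the controls and 82.0%, 82.0% and 82.7% with DM-aKG. The DM-aKG libraries were close together and inside the range of the controls. Pax6, a regulator of eye and endocrine pancreas, had 8 complete positions with 84.8%, 80.6% and 82.8% against 85.0%, 76.6% and 84.4%. Here DM-aKG replicate 2 was lowest, and the means, 82.7% ± 2.06 (SD, n = 3) and 82.0% ± 4.67 (SD, n = 3), differed by less than the spread.

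Pax9, a gene of the pharyngeal pouches and teeth, had 9 complete positions with 83.1%, 90.7% and 78.3% in the controls and 84.4%, 87.3% and 71.3% with DM-aKG. The libraries of both groups spread widely, and DM-aKG replicate 3 was the lowest. Pax1 had 6 positions and no complete one. Six2, which keeps kidney progenitors undifferentiated, had 3 complete positions with 64.7%, 56.0% and 50.3% in the controls and 59.0%, 58.3% and 60% with DM-aKG. Control replicate 1 was the highest library there, whereas it was the lowest in Hoxb1, Hoxb3 and Hoxc4.

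Wt1, a zinc finger regulator of kidney and gonad development, was the gene whose groups were apart in both measures. Its level at 20 complete positions was 82.1%, 86.1% and 86.5% in the controls and 88%, 90.3% and 90% with DM-aKG. All 3 DM-aKG libraries lay above all 3 controls, with means of 84.9% ± 2.43 (SD, n = 3) and 89.4% ± 1.28 (SD, n = 3). The difference was 4.57 points, or 4.81 at the 27 positions complete without control replicate 1. It was 1.29 points when the mean of a library took in all its positions with a value, and 14.2 when each 0 was counted as a level of 0. Values were present at 26, 32 and 36 of 48 positions in the controls and at 37, 41 and 40 with DM-aKG. The difference in that share was 16.7 points, or 11.1 without control replicate 1. In limma the level of Wt1 had a log2 odds difference of 0.55 (SE 0.19) with an unadjusted p of 0.0251 and an adjusted p of 0.764, and the share had 1.22 (SE 0.42) with 0.0363 and 0.496. Neither passed the threshold of 0.05 after adjustment. A block of 13 Wt1 positions at chr2:105143849-105144080 had means of 79.7% and 87.3% in control replicates 2 and 3 and 95.3%, 88.3% and 89.2% with DM-aKG at the 10 positions shared by these libraries.

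**Figure D5:**
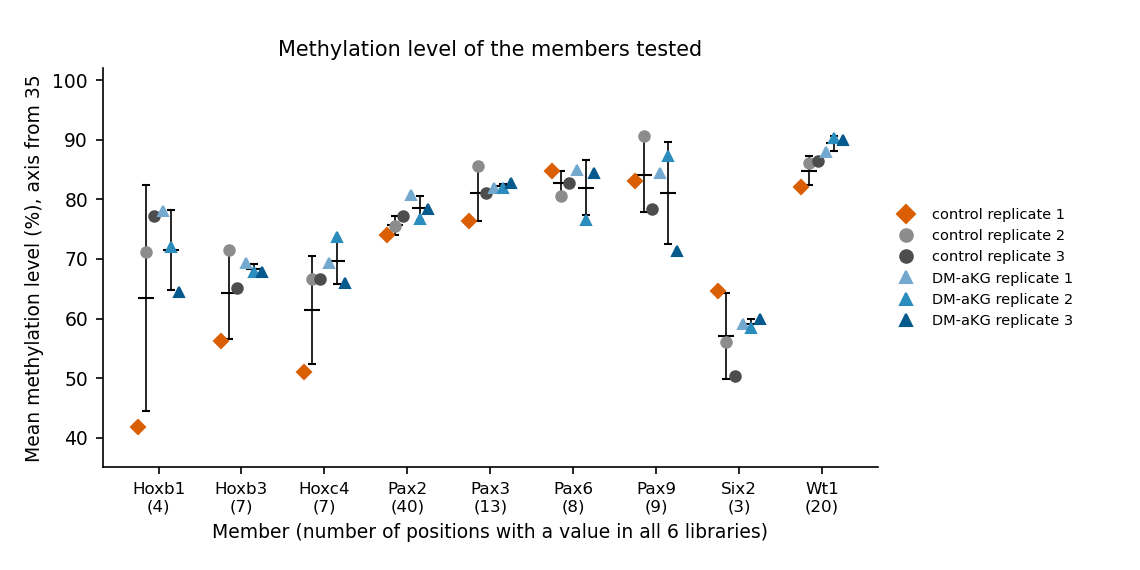
Mean methylation level (vertical axis, percent, starting at 35) in each library (points) for the 9 genes with at least 3 complete positions (horizontal axis, number of complete positions in brackets). Black bars give the mean and SD of each group of 3. In Wt1 the DM-aKG libraries (88% to 90.3%) lie above the controls (82.1% to 86.5%), and in the other 8 genes the groups overlap.

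Across the genes, no difference passed the adjusted threshold. Levels could be tested in 9 of the 37 genes, and limma called 0 of them, as it called 0 of all 9197 genes tested (0%). The smallest adjusted p among the 9 was 0.764. At an unadjusted p under 0.05 it found 1 of the 9, Wt1, and 573 of all genes (6.23%). Of the 9 genes 7 were higher with DM-aKG, against 66.3% of all genes, and their median difference was 2.93 points against 0.733. Wt1 was the 1 gene whose groups did not overlap, a pattern with DM-aKG higher that 11.3% of all genes had. Without control replicate 1 there were 13 genes to test, 10 of them higher, against 63.2% of all genes, with a median difference of 1.70 points against 0.517. None of the 13 then had an unadjusted p under 0.05, against 4.66% of all genes. The other 28 genes had too few complete positions, and the 9 that had enough had at least 3 positions at 40% or more in every library.

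The share of positions with a value could be tested in 20 of the 37 genes. Limma called 0 of these and 47 of all 10361 genes (0.454%), of which 41 had identical counts within both groups. At an unadjusted p under 0.05 there were 2 of the 20, Wt1 higher and Hoxd11 lower with DM-aKG, against 7.55% of all genes. As given above, the Hoxd11 positions were listed almost only through values in controls. The groups did not overlap in Hoxc4 and Wt1, higher with DM-aKG, and in Hoxd11, lower with DM-aKG. Over all genes 2.54% and 5.96% did so. The share was higher with DM-aKG in 14 of the 20 genes and lower in 4, against 36.5% higher over all genes. Without control replicate 1 it was higher in 10 and lower in 10, against 31.2% higher.

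Among single positions, 9 of the 115 complete ones had all DM-aKG levels above all control levels (7.83%, against 4.63% of all complete positions), and 0 had them below (against 2.5%). Of the 237 positions complete without control replicate 1, 22 had DM-aKG above both remaining controls (9.28%, against 8.92% of all such positions) and 15 below (6.33%, against 5.22%). The largest difference was in Evx2 at position 74655365 of chromosome 2, with 50%, 50% and 45% in the controls and 67%, 88% and 61% with DM-aKG. In Hoxb3 the position 96314893 of chromosome 11 had 44%, 43% and 47% against 68%, 55% and 59%. The position 96339911, in the same gene, had 74%, 75% and 78% against 83%, 86% and 83%. Control replicate 1 lay close to the other controls at all 3 of these positions.

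In Pax2, position 44825185 of chromosome 19 had 65%, 73% and 59% in the controls and 100%, 75% and 83% with DM-aKG. Position 44820283 of the same gene had 53%, 56% and 56% against 67%, 68% and 83%. In Wt1, position 105143849 of chromosome 2 had 96%, 94% and 83% against 100%, 97% and 100%. Single positions were not tested, since each has 3 values a group and an unknown number of reads.

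At 8 of the 604 positions all DM-aKG libraries and no control had a value (1.32%, against 0.314% of all positions). Of these, 6 were in HoxB and 2 in HoxC, 1 of them the only measured position of Hoxc9. The reverse pattern was seen at 4 positions (0.662%, against 0.459%). Control replicate 1 lacked a value at most Hox positions whatever the other controls had, and its part in the first count was not tested.

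Windows of 5000 bases, which unlike gene spans do not overlap, gave 6 tested windows of 36 in HoxB, 1 of 24 in HoxC and 0 of 24 in HoxD. All 7 were higher with DM-aKG, against 64.6% of all 27130 windows, and limma called 0 of them and 0 of all windows (0%). The same positions without control replicate 1 gave -2.75 points in the Hoxb1 window, while the other 6 were still higher, by 1.90 to 6.06 points. At an unadjusted p under 0.05, with all libraries, there was 1 of the 7, against 5.56% of all windows. It lay between Hoxb13 and Hoxb9 at chr11:96205000-96209999, with 3 positions at 69.0%, 71.0% and 75.3% in the controls and 78.7%, 78.7% and 80.3% with DM-aKG (limma unadjusted p = 0.0407, adjusted p = 0.837). The next, at chr11:96245000-96249999, covers the pseudogene Gm11539 and had 31 positions at 78.8%, 84.6% and 86.7% against 89.4%, 88.4% and 88% (limma unadjusted p = 0.0686, adjusted p = 0.837). In both the DM-aKG libraries lay above all controls, a pattern of 9.09% of all windows, and no Hox window had them below (2.42% of all windows). Both lie in the gap between the posterior HoxB genes and outside every Hox gene span. The HoxC window was that of the Hoxc4 block (limma unadjusted p = 0.161, adjusted p = 0.837).

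Genes of related function were compared by counts, and none was called. These lists are given with all 6 libraries only. Over all genes 66.3% were higher with DM-aKG. Of 15 tested Polycomb subunits 10 were higher and 5 lower with DM-aKG, with a median difference of 0.968 points against 0.733 over all genes. Suz12, a core subunit of the complex that methylates histone H3 at Polycomb targets, had 96.2% ± 0.962 in controls and 98.3% ± 0.512 with DM-aKG (SD, n = 3 each, limma unadjusted p = 0.00833, adjusted p = 0.764). Cbx6, a reader of that mark, had 91.8% ± 2.05 and 94.3% ± 0.554 (adjusted p = 0.764). Of the 6 Hox cofactors of the TALE class 2 were higher and 4 lower. Meis1 had 79.4% ± 1.99 and 84.2% ± 1.82 (unadjusted p = 0.0394, adjusted p = 0.764), and Meis2 had 88.8% ± 5.68 and 84.4% ± 1.5 (adjusted p = 0.764). In Suz12, Cbx6 and Meis1 the DM-aKG libraries lay above all controls, a pattern of 11.3% of all genes. Control replicate 1 was the lowest library in these genes and the highest in Meis2.

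Of 5 tested regulators of Hox genes, the Cdx and retinoid group, 3 were higher and 2 lower. The retinoic acid receptor genes Rarb and Rara differed by 1.99 and -0.936 points (adjusted p = 0.766 and 0.859). Of 16 tested paralogs and other developmental transcription factors 13 were higher and 3 lower, against 66.3% of all genes higher. Their median difference was 1.89 points, against 0.733 over all genes. Lhx1, a gene of kidney and head development, had 57.3%, 63.8% and 65.6% in the controls and 71.7%, 72.4% and 69.0% with DM-aKG (unadjusted p = 0.0210, adjusted p = 0.764). Pax8, a regulator of thyroid and kidney, had 76.4%, 85.0% and 91.5% against 91.9%, 92.6% and 94.9% (unadjusted p = 0.0293, adjusted p = 0.764). In both genes the DM-aKG libraries lay above all controls and control replicate 1 was the lowest. That library was the lowest in all 16 genes but Gsc, Lhx2 and Tbx2. The count of 13 higher was not repeated without it. Of 8 tested genes flanking the clusters 7 were higher, against 66.3% of all genes, among them Ttll6 by 3.45 points and Nfe2l2 by 3.07. Nfe2l2 had 70.6%, 76.8% and 76.8% in the controls and 77.2%, 77.4% and 78.8% with DM-aKG. Control replicate 1 was thus the lowest there, and the other controls lay close to the DM-aKG libraries. It was also the lowest in Ttll6, Skap1 and Smug1, and not in Calcoco1, Nfe2, Cbx5 and Atf2. Of the noncoding genes inside the clusters 1 could be tested, Hoxb3os, which differed by -0.733 points (adjusted p = 0.954).

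Marker genes of the cell types an intestinal culture can hold were measured in the same way, although levels above 40% in a gene span do not identify a cell type. Over all genes 66.3% were higher with DM-aKG, with a median difference of 0.733 points. All 5 tested epithelial markers were lower with DM-aKG, with a median difference of -2.01 points. Of 5 tested fibroblast markers 4 were higher, with a median of 4.67 points, and the immune marker Ptprc and the endothelial marker Eng were higher by 5.04 and 2.38 points. None was called (smallest adjusted p = 0.764). The 2 epithelial genes with the smallest p were Epcam, with 92.3%, 88.8% and 89.2% in the controls and 88.2%, 86.8% and 88.7% with DM-aKG, and Krt20, with 98.6%, 92.2% and 94.6% against 92.8%, 94.2% and 92.2%. The 2 fibroblast genes were Vim, with 94.0%, 94.3% and 94.3% against 95.3%, 97.1% and 97.1%, and Dcn, with 73.9%, 80.3% and 83.9% against 83.6%, 86.6% and 87.3%. Over the whole lists, control replicate 1 was the highest library in 3 of the 5 epithelial markers (Epcam, Krt20 and Lgr5) and lay between the others in Hnf4a and Vil1. It was the lowest in 3 of the 5 fibroblast markers (Vim, Dcn and Pdgfrb), lay between the others in Col1a1, and was the second highest in Col3a1, with 70.3% against 56.3% to 71.0%. It was also the lowest in Ptprc, with 65.3% against 72.9% to 79.0%, and in Eng. These ranks were not counted over all genes. At the complete positions of all rows control replicate 1 also had the lowest mean level, 86.7% against 87.9% to 88.9%. The part of the marker differences in the Hox values of that library was not tested.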

How the data were processed

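The deposited table holds 1 percent of methylation per cytosine position for each of 6 libraries, made by the authors and rounded to whole numbers, with no coverage column. The submitters' processing notes name CASAVA 1.8, Novoalign 3.08.02 and mm10. Which methylation caller was run is not given in the sources used here. Only the first 390208 of 813850 rows were used, because in later rows the libraries are out of register. They cover chromosomes 1, 2 and 10 to 19 and chromosome 3 up to position 87947903. Within RefSeq promoters the base at the table's start was C or G at 4547 of 4550 positions, so coordinates count from 1.

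Gene spans came from RefSeq (GRCm38.p6, all 37 genes matched). Gene levels (at least 3 complete positions), shares of positions with a value (at least 3 positions) and levels of 5000-base windows were compared between groups in limma 3.58.1 (R 4.3.3), as log2 odds (offset 0.01 for levels and 0.5 for counts), with no replicate block. Benjamini-Hochberg adjustment ran over all genes or windows, at a threshold of 0.05. The tests were tried on simulated data, drawn as normal values of the log2 odds. Real shares come from counts that can be identical within a group, so these trials do not check the calls for shares. The p-values set the difference of the groups against the spread between these libraries, which limma moderates over all genes or windows. Sets were described per library without a test.

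The genes and lists were chosen with earlier results of these data known. The rule for naming took all 37 genes, the 2 genes per list and the 2 windows per cluster with the smallest p, and the 2 complete positions per set and direction with the largest difference among those whose groups did not overlap. For the markers of immune cells and endothelium 1 gene each could be tested. The blocks, the counts for control replicate 1 and its rank in all tested markers were added after values were seen.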

Additional observations from a re-analysis of the deposited data

How the results depend on the processing

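Depth is unknown, and levels under 40% are outside these data. The replicate numbers did not pair the libraries (correlations of same-numbered deviations from -0.0187 to 0.0252). A replicate block called 0 genes for the share of positions with a value, against 18 higher and 29 lower without it, and equalised library means called 2 and 2. Leaving out 1 library called 40 to 104 higher and 50 to 294 lower. For gene levels, 1 gene was called higher with at least 1 position, with every position a library has a value at, and with untransformed percent, and 5 higher and 2 lower with zeros counted as 0, all against 0. Untransformed percent called 1 window higher. No setting called any of the 37 genes.

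With every position a library has a value at, the level differences were -2.32 in HoxB, 0.223 in HoxC, -1.70 in HoxD, -1.29 in Pax and 1.29 in Wt1, and Hoxb3 (-6.36), Hoxc4 (-1.12), Pax2 (-2.27) and Pax6 (3.18) changed sign. With zeros counted as 0 they were 7.29 in Six2 and 14.2 in Wt1, and Pax9 changed sign (2.25). Leaving out 1 library gave 1.22 to 10.9 in HoxC. It changed the sign of the level in Hoxb1 (-6.38 to 15), Pax3 (-1.12 to 3.50), Pax6 (-3.13 to 1.98, and 0.667), Pax9 (-6.15 to 1.85, and 0.315) and Six2 (-1.22 to 5.94), and of the share in Hoxb1 (-13.6 to 13.6, and -6.06), Hoxb2 (-0.667 to 29.3), Hoxb3 (-6.57 to 25.3), Hoxb5 (-3.79 to 15.9, and -2.27), Hoxb6 (-38.9 to 2.78) and Pax2 (-5.39 to 11.4). The difference in Wt1 stayed positive in each setting run for the level and for the share. The cause was not tested.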
